A study of Mus musculus with 9 samples.

Results

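The interleukin-1 family cytokines are a set of secreted or released signal proteins that start and limit inflammation. Their 6 transcripts measured here were Il1a, Il1b, Il36g, Il18, Il33 and Il1rn, taken by gene name from a table of 56748 genes. RNA sequencing of RAW264.7, a mouse macrophage line, gave 9 libraries in 3 groups of 3, all under a model condition of which the labels say no more. The P-Mn/TI@mHSA cells received nanoparticles with nanoenzymes (materials with enzyme-like activity) plus a TRAF6 inhibitor, the P-Mn@mHSA cells received nanoparticles with nanoenzymes and no inhibitor, and the PBS cells were the controls of that condition. No group without the model condition and none with the inhibitor alone was used here. Doses and times were not given in the sources used here. The inhibitor therefore cannot be told apart from any other difference between the particles. Below, "with the inhibitor" only names the P-Mn/TI@mHSA group. Triplicates are named without a word on separate cultures, so a p-value reflects the scatter of these libraries alone, which may be technical.

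Interleukin-1 alpha and interleukin-1 beta, the products of Il1a and Il1b, act through the same receptor, IL1R1 with its accessory chain IL1RAP. The Il1rn product occupies that receptor without starting a signal. Interleukin-18 is a driver of interferon-gamma production, interleukin-33 is a nuclear alarmin released from damaged cells that acts through ST2 (Il1rl1), and interleukin-36 gamma acts through IL1RL2. The agonist receptors recruit MyD88, IRAK kinases and TRAF6, an adaptor and ubiquitin ligase, and so activate NF-kB and MAP kinases. Interleukin-1 beta and interleukin-18 are made as precursors that caspase-1 cuts in inflammasomes, so a transcript level does not give the amount of active cytokine. Macrophages are a main source of interleukin-1 beta, whereas interleukin-33 is best known from epithelial and stromal cells.

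Promoter sequences are shown for the members with the largest changes, and for Il1a beside its neighbour Il1b because their transcripts moved in opposite directions under one of the treatments. Each runs 5′ to 3′ on the strand of its gene, from 250 bases before the start to 50 after it, as given by RefSeq for GRCm38.p6. The windows were chr2:129309923-129310222 on the minus strand for Il1a, chr2:129371090-129371389 on the minus strand for Il1b, chr2:24186226-24186525 on the plus strand for Il36g, and chr19:29924863-29925162 and chr19:29945540-29945839 on the plus strand for 2 starts of Il33. Capitals mark matches to the motifs searched.
Il1a: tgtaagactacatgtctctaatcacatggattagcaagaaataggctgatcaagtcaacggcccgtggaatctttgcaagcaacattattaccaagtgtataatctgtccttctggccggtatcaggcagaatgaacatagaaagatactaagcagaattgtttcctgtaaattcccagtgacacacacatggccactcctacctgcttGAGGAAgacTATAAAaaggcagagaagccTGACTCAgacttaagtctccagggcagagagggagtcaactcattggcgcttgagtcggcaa
Il1b: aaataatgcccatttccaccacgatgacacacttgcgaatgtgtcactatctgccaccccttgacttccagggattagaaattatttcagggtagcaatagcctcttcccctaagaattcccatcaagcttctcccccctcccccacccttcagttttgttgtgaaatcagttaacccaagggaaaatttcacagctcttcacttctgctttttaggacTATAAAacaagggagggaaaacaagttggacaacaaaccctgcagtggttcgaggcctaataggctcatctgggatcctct
Il36g: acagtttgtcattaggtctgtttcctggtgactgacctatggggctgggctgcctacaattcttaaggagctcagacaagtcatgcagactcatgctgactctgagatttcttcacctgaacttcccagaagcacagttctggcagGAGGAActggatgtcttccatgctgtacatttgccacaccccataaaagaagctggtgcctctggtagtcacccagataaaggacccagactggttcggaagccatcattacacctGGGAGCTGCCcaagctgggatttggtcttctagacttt
Il33 upstream start: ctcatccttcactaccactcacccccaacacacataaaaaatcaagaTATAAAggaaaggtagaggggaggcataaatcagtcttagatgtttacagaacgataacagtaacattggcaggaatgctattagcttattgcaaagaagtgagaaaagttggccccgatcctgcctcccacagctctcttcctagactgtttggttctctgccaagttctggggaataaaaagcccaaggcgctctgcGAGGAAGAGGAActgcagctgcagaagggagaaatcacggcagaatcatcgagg
Il33 downstream start: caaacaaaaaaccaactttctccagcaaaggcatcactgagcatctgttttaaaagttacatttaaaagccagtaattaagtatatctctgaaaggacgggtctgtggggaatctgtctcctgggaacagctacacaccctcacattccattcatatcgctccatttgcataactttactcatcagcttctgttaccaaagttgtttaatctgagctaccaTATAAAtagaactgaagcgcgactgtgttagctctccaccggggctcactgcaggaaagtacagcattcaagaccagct

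The motifs searched, on both strands, were an NF-kB site (GGGA, any 4 bases, CC), an AP-1 site (TGANTCA), a CRE (TGACGTCA), a PU.1 core (GAGGAA), an ISRE (GAAA, any 2 bases, GAAA), a hypoxia-response core (ACGTG) and a TATA box (TATAAA). Of 32851 RefSeq promoters of this length, 20.7% held the NF-kB letters, 7.81% AP-1, 1.79% the CRE, 28.3% PU.1, 3.44% the ISRE, 19.6% the hypoxia core and 13.6% the TATA box. Il1a and Il1b both had a TATA box near the start, with its first base at -32 and at -31 (the start is 0). The Il1a window also held an AP-1 match at -12 and a PU.1 match at -41, and the Il1b window held no other match. The upstream Il33 start had 2 adjoining PU.1 matches at -4 and 2 and a TATA match at -203, and the downstream Il33 start had a TATA box at -29. The Il36g window held an NF-kB match at 12, past the start, and a PU.1 match at -104. Of the windows not printed, the first of the 3 Il1rn starts held an NF-kB match at -54 and an AP-1 match at -141, the third held a TATA match on the minus strand at 14, and the Il18 window held a TATA match on the minus strand at -175. No 2 of these matches shared a base. They are letter matches only, and none was tested for binding.

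Libraries held 13994570 to 15543439 counts. Across genes, on log2 CPM, Pearson r was 0.9881 to 0.9915 within groups and 0.9589 to 0.99 between them. Replicate 2 of P-Mn@mHSA stood apart in Gapdh, a glycolysis gene often used as a standard, with 7579 counts against 517 and 537 in its sister libraries, so the members were also fitted without it. All 8 macrophage markers on the list were expressed, with summed levels of 4631 to 4995 CPM (read counts scaled to library size) in P-Mn/TI@mHSA, 4483 to 4767 CPM in P-Mn@mHSA and 5716 to 5992 CPM in PBS. Of the epithelial markers, Krt5, Krt14, Krt18 and Cdh1 were at 0 in every library and Epcam was under 1 CPM. The 3 T cell, 3 B cell and 4 mast cell markers were each under 1 CPM in every library. Neutrophil markers summed to 0.136 to 1.04 CPM in P-Mn/TI@mHSA, 0.497 to 0.768 CPM in P-Mn@mHSA and 1.49 to 2.48 CPM in PBS, with Ly6g at 0. Fibroblast markers summed to 0.0652 to 0.339 CPM in P-Mn/TI@mHSA, 0.142 to 0.812 CPM in P-Mn@mHSA and 1.03 to 1.96 CPM in PBS, with Col1a2 at 0. The part of these marker levels in the results was not tested.

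All 6 members changed in P-Mn@mHSA cells relative to PBS: Il33, Il1a and Il18 were higher, and Il1b, Il36g and Il1rn were lower. In P-Mn/TI@mHSA cells relative to PBS, Il33 alone among the 6 was higher, Il1b, Il36g, Il1rn and Il1a were lower, and Il18 did not pass the test. Between the particles, all members but Il36g were lower in P-Mn/TI@mHSA. A gene was called at an adjusted p under 0.05 in edgeR's quasi-likelihood test over 12454 genes. In P-Mn@mHSA against PBS, 3 of 6 members were called higher and 3 lower, where 48.5% of all tested genes were called, 24.3% higher and 24.1% lower. In P-Mn/TI@mHSA against PBS, 1 was called higher and 4 lower, where 54.4% of all genes were called, 27.1% higher and 27.3% lower. Between the particles, with P-Mn/TI@mHSA set against P-Mn@mHSA, 5 of 6 were called lower and 0 higher, where 3.82% of all genes were called, 1.48% higher and 2.34% lower. The medians of the members' log2 fold changes were 0.05, -0.72 and -0.65 in these 3 comparisons, and the medians over all genes lay between -0.01 and 0. Il36g stands in both tallies and both medians against PBS, and in the counts of groups without overlap against PBS given below. Il36g entered the test only through its PBS counts, so its difference from PBS was built into its selection and counts as no support. Among the other members, the middle log2 fold change against PBS was that of Il18 in P-Mn@mHSA (0.5) and that of Il1a in P-Mn/TI@mHSA (-0.66). At a size of at least 2-fold, Il33 was called higher and Il1b lower in both particle groups against PBS, and Il36g was lower with that same limit. That size was reached by 3.06% of all genes as higher and 5.67% as lower in P-Mn@mHSA, and by 2.65% and 7.32% in P-Mn/TI@mHSA. Groups that did not overlap were found for 54.6% of all genes in P-Mn@mHSA against PBS, 61.5% in P-Mn/TI@mHSA against PBS and 24.0% between the particles, and among the members for 6, 5 and 5 of 6. Without replicate 2 of P-Mn@mHSA, the log2 fold changes of P-Mn@mHSA against PBS were 4.12 for Il33, 0.56 for Il1a, 0.44 for Il18, -1.74 for Il1b, -0.45 for Il1rn and -3.21 for Il36g. Those between the particles were -0.65 for Il33, -1.22 for Il1a, -0.5 for Il18, -1.22 for Il1b, -0.33 for Il1rn and -0.43 for Il36g. Among these 12 values, the call of Il1rn between the particles was lost and no other. The comparisons share libraries, so their values are not independent of each other.

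**Figure D1:**
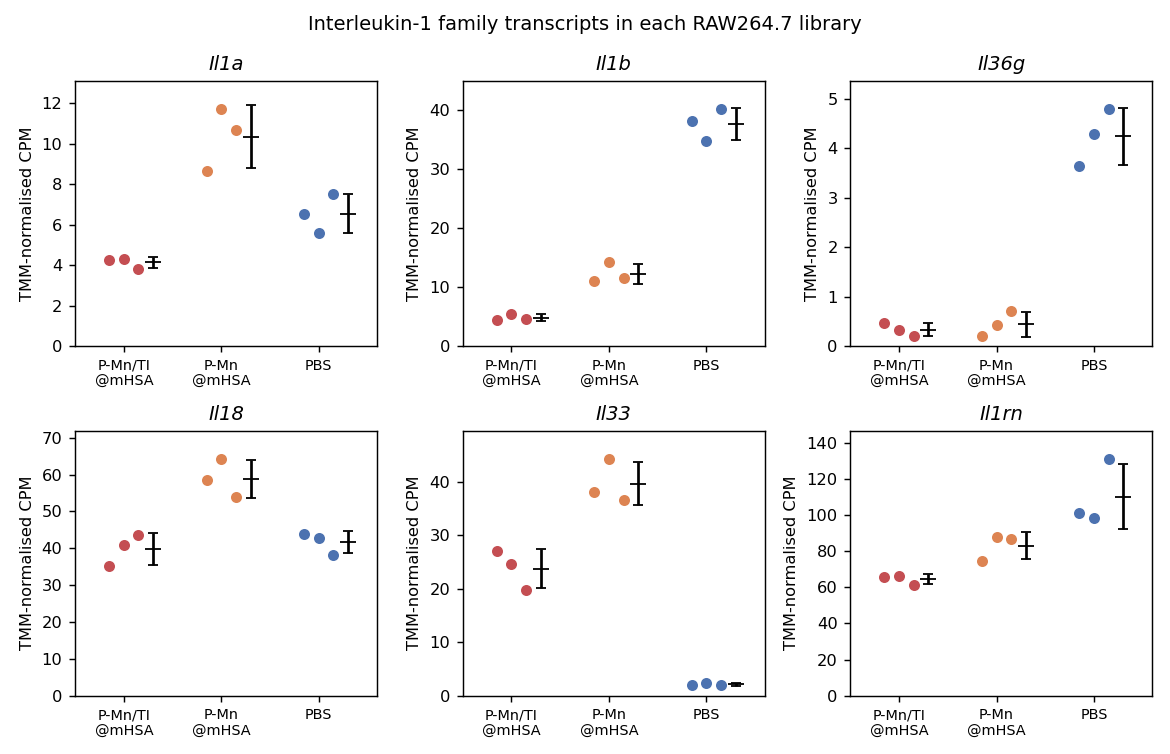
TMM-normalised CPM of the 6 transcripts (vertical axes, each from 0) in P-Mn/TI@mHSA, P-Mn@mHSA and PBS libraries (horizontal axis). Points are the libraries, replicates 1 to 3 from left to right, and the black dash and bar are their mean ± SD (n = 3). The 3 PBS libraries are the highest for Il1b, Il36g and Il1rn and the lowest for Il33, and the 3 P-Mn@mHSA libraries are the highest for Il1a, Il18 and Il33.

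Il33 was higher in both particle groups than in PBS cells, which held very little of it, and its fold change was the largest of the 6 in P-Mn@mHSA against PBS. Levels are given in CPM for replicates 1, 2 and 3 in that order, here and below. Il33 had 27.0, 24.6 and 19.7 CPM in P-Mn/TI@mHSA, 38.0, 44.2 and 36.6 CPM in P-Mn@mHSA, and 1.93, 2.39 and 2.09 CPM in PBS. No library of one group reached the level of another: P-Mn@mHSA was the highest, P-Mn/TI@mHSA lay between, and PBS was at the bottom. Against PBS, Il33 was 18.5-fold higher in P-Mn@mHSA (log2 4.21 ± 0.159 SE, edgeR adjusted p = 8.19e-15) and 11.1-fold higher in P-Mn/TI@mHSA (log2 3.47 ± 0.164, adjusted p = 3.06e-13). These were the 13th and the 20th highest fold changes of 12454 genes. Il33 was nevertheless 1.67-fold lower with the inhibitor particle than with P-Mn@mHSA (log2 -0.74 ± 0.116, edgeR adjusted p = 0.000796). In bulk RNA, more cells expressing a gene and more RNA per cell cannot be told apart, which holds for every level here. Among markers of other cell types that can express Il33, epithelial ones were at or near 0 in all libraries, fibroblast ones summed to less than 2 CPM in every library, and endothelial ones summed to 3.15 to 6.79 CPM in P-Mn/TI@mHSA, 4.54 to 5.82 CPM in P-Mn@mHSA and 3.17 to 4.74 CPM in PBS. The part of these markers in the Il33 level was not tested. The gene lies on chromosome 19, plus strand (ENSMUSG00000024810), and no other gene in the table overlapped it.

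Il1b, which encodes the classical secreted interleukin-1 of macrophages, was lower in both particle groups. Il1b had 4.4, 5.48 and 4.56 CPM in P-Mn/TI@mHSA, 11, 14.2 and 11.6 CPM in P-Mn@mHSA, and 38.2, 34.7 and 40.1 CPM in PBS. The 3 groups formed 3 separate steps, with PBS at the top and the inhibitor particle at the bottom. Against PBS, Il1b was 3.07-fold lower in P-Mn@mHSA (log2 -1.62 ± 0.121, edgeR adjusted p = 5.69e-10) and 7.8-fold lower in P-Mn/TI@mHSA (log2 -2.96 ± 0.135, adjusted p = 1.91e-13). It was 2.54-fold lower in P-Mn/TI@mHSA than in P-Mn@mHSA (log2 -1.35 ± 0.145, edgeR adjusted p = 8.48e-06), the 9th lowest p of all genes in that comparison. Il1b lies on chromosome 2, minus strand (ENSMUSG00000027398). The opposite-strand gene Il1bos overlapped it and had 29 counts in all libraries together, and the strand setting of the authors' counting was not given in the sources used here.

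Il1a, the neighbouring gene on chromosome 2, minus strand (ENSMUSG00000027399), encodes the cell-associated interleukin-1 that acts without cutting by caspase-1. It differed from Il1b in its response to P-Mn@mHSA: relative to PBS it was higher there and lower with the inhibitor. Il1a had 4.27, 4.31 and 3.82 CPM in P-Mn/TI@mHSA, 8.66, 11.7 and 10.7 CPM in P-Mn@mHSA, and 6.53, 5.6 and 7.5 CPM in PBS. The PBS libraries lay between the particle groups, and no groups overlapped. Against PBS, Il1a was 1.58-fold higher in P-Mn@mHSA (log2 0.66 ± 0.166, edgeR adjusted p = 0.00248) and 1.58-fold lower in P-Mn/TI@mHSA (log2 -0.66 ± 0.182, adjusted p = 0.00401). Between the particles it was 2.49-fold lower with the inhibitor (log2 -1.32 ± 0.175, edgeR adjusted p = 9.16e-05). Il1a and Il1b were thus both at least 2-fold lower between the particles, a size that 18 of 12454 genes (0.145%) reached as called falls and 2 genes (0.0161%) as called rises. The opposite-strand gene Gm14023 overlapped Il1a, shared 9.14% of its 50-base stretches and had 38 counts over all libraries.

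Il36g, an agonist best known from epithelia, was a low transcript in PBS cells and close to the counting floor in particle-treated cells. Its counts were 7, 5 and 3 in P-Mn/TI@mHSA, 3, 6 and 10 in P-Mn@mHSA, and 53, 63 and 71 in PBS. As levels these were 0.474, 0.326 and 0.201 CPM in P-Mn/TI@mHSA, 0.203, 0.419 and 0.71 CPM in P-Mn@mHSA, and 3.64, 4.3 and 4.79 CPM in PBS. The particle groups overlapped each other and lay below every PBS library. Against PBS, the fitted level of Il36g was 9.47-fold lower in P-Mn@mHSA (log2 -3.24 ± 0.388 SE) and 12.5-fold lower in P-Mn/TI@mHSA (log2 -3.64 ± 0.404). The summed counts, 15 in P-Mn/TI@mHSA, 19 in P-Mn@mHSA and 187 in PBS, put the PBS level at 9.66 times that of P-Mn@mHSA (exact 95% interval 6.02 to 16.4) and at 12.8 times that of P-Mn/TI@mHSA (7.54 to 23.3), for counting error only. Between the particles it did not pass the test (log2 -0.39, 95% interval -1.56 to 0.77, edgeR adjusted p = 0.744). Since it was kept for testing only through its PBS counts, its differences from PBS are a description, with no test. With limma on log2(FPKM + 1), a scale that shrinks low genes, the log2 differences from PBS were -1.56 in P-Mn/TI@mHSA and -1.49 in P-Mn@mHSA. The gene (ENSMUSG00000044103, chromosome 2, plus strand) shared 8.68% of its 50-base stretches with other genes, predicted ones among them.

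Il18 was higher with P-Mn@mHSA and not with the inhibitor particle. It had 35.2, 40.8 and 43.7 CPM in P-Mn/TI@mHSA, 58.6, 64.2 and 53.9 CPM in P-Mn@mHSA, and 43.8, 42.9 and 38.2 CPM in PBS. P-Mn@mHSA stood above every other library, while the other two groups overlapped. Against PBS, Il18 was 1.42-fold higher in P-Mn@mHSA (log2 0.5 ± 0.0916, edgeR adjusted p = 0.000114). In P-Mn/TI@mHSA against PBS the log2 fold change was -0.06 (95% interval -0.25 to 0.13, edgeR adjusted p = 0.606). Between the particles Il18 was 1.48-fold lower with the inhibitor (log2 -0.56 ± 0.0917, edgeR adjusted p = 0.00111). Il18 (ENSMUSG00000039217) lies on chromosome 9, plus strand, and overlapped the opposite-strand genes Tex12, with 30 counts in all, and Bco2. Bco2 averaged 10.5 ± 1.39 CPM in P-Mn/TI@mHSA, 11.9 ± 0.709 CPM in P-Mn@mHSA and 12.5 ± 2.78 CPM in PBS (SD, n = 3 each), and passed the edgeR test in none of the comparisons.

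Il1rn, the receptor antagonist, was lower in both particle groups. It had 65.5, 66.4 and 61.2 CPM in P-Mn/TI@mHSA, 74.6, 87.7 and 86.9 CPM in P-Mn@mHSA, and 101.0, 98.5 and 131.0 CPM in PBS. The groups did not overlap, and PBS replicate 3 was the highest library. Against PBS, Il1rn was 1.33-fold lower in P-Mn@mHSA (log2 -0.41 ± 0.0935, edgeR adjusted p = 0.00107) and 1.71-fold lower in P-Mn/TI@mHSA (log2 -0.78 ± 0.0946, adjusted p = 6.05e-07). Without PBS replicate 3, the first of these log2 fold changes was -0.26 and remained called (edgeR adjusted p = 0.0158). Between the particles it was 1.29-fold lower with the inhibitor (log2 -0.37 ± 0.0953, edgeR adjusted p = 0.0344). This call did not hold without replicate 2 of P-Mn@mHSA, which gave a log2 fold change of -0.33 (edgeR adjusted p = 0.0979), nor without replicate 3 of P-Mn@mHSA or any single replicate of P-Mn/TI@mHSA (adjusted p from 0.051 to 0.132). Il1rn (ENSMUSG00000026981) lies on chromosome 2, plus strand.

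**Figure D2:**
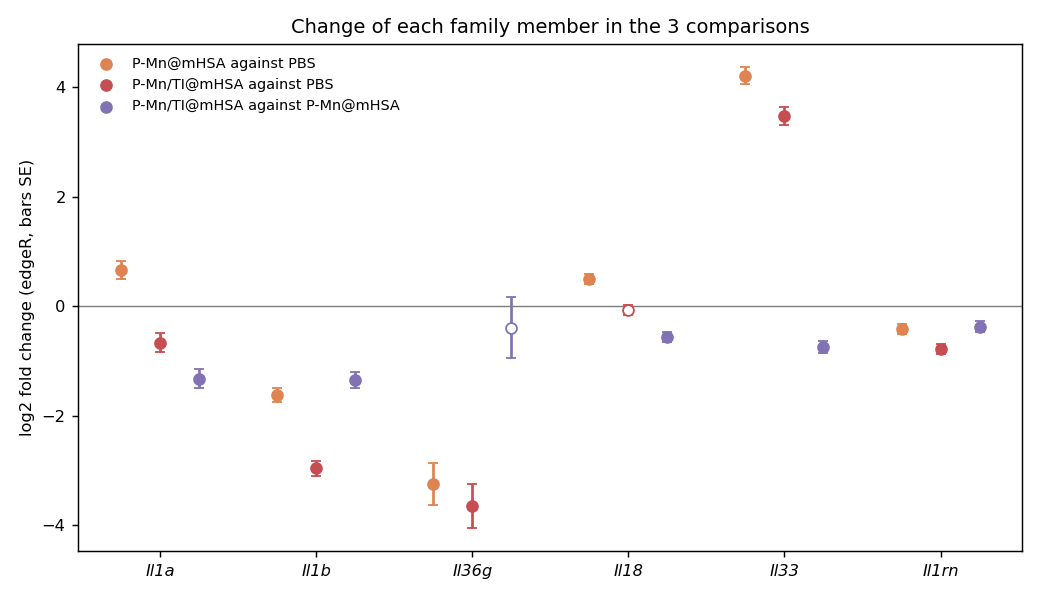
Log2 fold change (vertical axis) of each member in the 3 comparisons, with bars of 1 SE from edgeR. Filled circles were called at an adjusted p under 0.05 and open circles were not. Il33 lies at 4.21 and 3.47 against PBS, Il36g at -3.24 and -3.64 (kept for testing only through its PBS counts), and Il1a lies on opposite sides of 0 for the 2 particles.

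Per length, as FPKM (fragments scaled to gene length and library size), the order of the transcripts differed between groups. In P-Mn/TI@mHSA the order was Il18 (34.0 to 42.0 FPKM), Il1rn (11 to 12), Il33 (6.76 to 9.33), Il1b (2.3 to 2.86), Il1a (1.92 to 2.17) and Il36g (0.121 to 0.287), and no neighbours overlapped. In P-Mn@mHSA it was Il18 (52.0 to 62.0 FPKM), Il1rn (13.4 to 15.8), Il33 (12.6 to 15.3), Il1b (5.71 to 7.43), Il1a (4.36 to 5.88) and Il36g (0.122 to 0.428). There, Il1rn and Il33 overlapped, as did Il1b and Il1a. In PBS it was Il18 (36.7 to 42.1 FPKM), Il1rn (17.6 to 23.5), Il1b (18 to 20.9), Il1a (2.81 to 3.77), Il36g (2.19 to 2.89) and Il33 (0.66 to 0.821). There, Il1rn and Il1b overlapped, as did Il1a and Il36g. Il33 was thus the lowest of the 6 per length in PBS and above Il1b in both particle groups.

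The make-up of the family followed these orders. Il33 took 15.6, 13.0 and 10.5% of the summed FPKM of the 6 transcripts in P-Mn/TI@mHSA, 14, 14.3 and 13.7% in P-Mn@mHSA, and 0.767, 0.988 and 0.813% in PBS. Il1b took 3.98% on average in P-Mn/TI@mHSA, 6.55% in P-Mn@mHSA and 22.8% in PBS. Il18 was the largest share in each group, with means of 61.0% in P-Mn/TI@mHSA, 58.4% in P-Mn@mHSA and 46.7% in PBS. The sum itself was 63.0 ± 2.77 FPKM in P-Mn/TI@mHSA, 97.2 ± 8.12 FPKM in P-Mn@mHSA and 85.9 ± 2.68 FPKM in PBS (SD, n = 3 each). Shares within a library do not depend on how libraries are scaled, and they are given without a test. They do depend on the division by length: in counts, Il1rn was above Il18 in each group. Il1rn had 2898 summed counts and Il18 had 1797 in P-Mn/TI@mHSA. The summed counts were 3583 and 2545 in P-Mn@mHSA, and 4855 and 1830 in PBS.

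**Figure D3:**
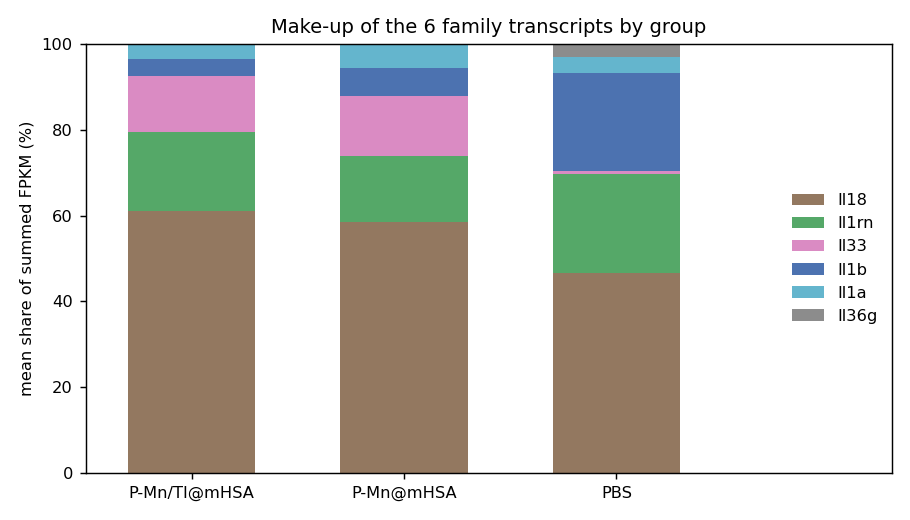
Mean share of each transcript in the summed FPKM of the 6 members (vertical axis, %) in P-Mn/TI@mHSA, P-Mn@mHSA and PBS (n = 3 libraries each). Il33 fills 13.1% and 14% of the bars of P-Mn/TI@mHSA and P-Mn@mHSA, against 0.856% in PBS, and Il1b fills 22.8% in PBS.

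The ratio of the antagonist Il1rn to an agonist of the same receptor depended on which agonist was taken. Against Il1b it was higher in both particle groups than in PBS, and against Il1a it was not. Il1rn over Il1b was 5.12, 4.18 and 4.63 in P-Mn/TI@mHSA, 2.34, 2.12 and 2.59 in P-Mn@mHSA, and 0.913, 0.978 and 1.13 in PBS, as ratios of FPKM. The level of such a ratio depends on the gene lengths, and its fold difference between groups does not. The groups did not overlap. Relative to PBS, the mean log2 ratio was higher by 2.21 in P-Mn/TI@mHSA (4.62-fold) and by 1.23 in P-Mn@mHSA (2.34-fold), and between the particles it was higher by 0.98 with the inhibitor (1.97-fold). An exact two-sided permutation test gave p = 0.1 for each, the smallest that 3 libraries against 3 allow, and these 3 and the 3 tests of Il1a over Il1b form a family of 6. Il1rn over Il1a was 5.49, 5.53 and 5.73 in P-Mn/TI@mHSA, 3.07, 2.69 and 2.91 in P-Mn@mHSA, and 5.52, 6.26 and 6.23 in PBS, given as a description with no test. For this ratio P-Mn@mHSA lay below every other library, and P-Mn/TI@mHSA overlapped PBS.

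Il1a over Il1b, the ratio of the neighbouring agonists, was 0.936, 0.759 and 0.81 in P-Mn/TI@mHSA, 0.763, 0.791 and 0.889 in P-Mn@mHSA, and 0.165, 0.156 and 0.181 in PBS. Both particle groups lay above all PBS libraries and overlapped each other. The mean log2 ratio was higher than in PBS by 2.32 in P-Mn/TI@mHSA (4.98-fold) and by 2.28 in P-Mn@mHSA (4.87-fold), each with an exact permutation p of 0.1. Between the particles it differed by 0.03 (exact permutation p = 0.7). Il1a and Il1b therefore differed by similar factors between the particles, and by different factors between either particle and PBS.

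**Figure D4:**
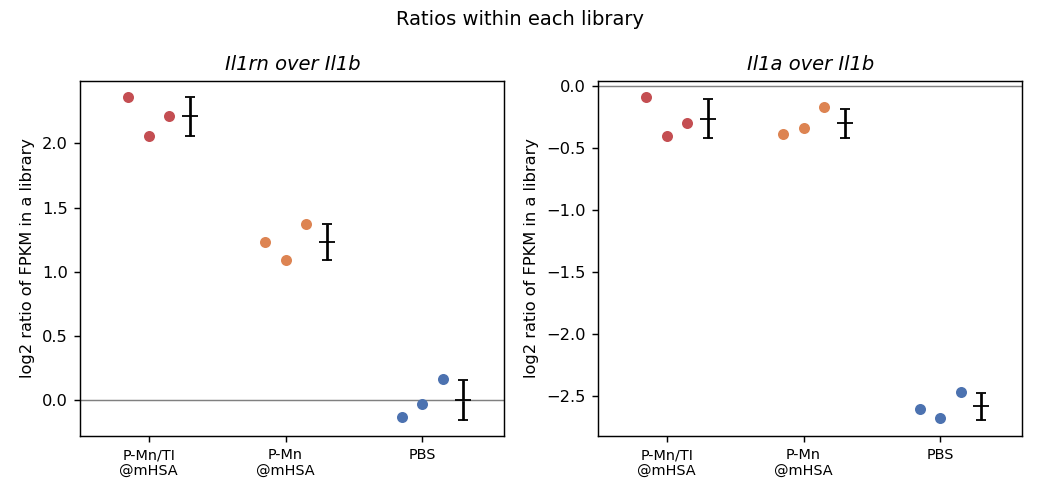
Log2 ratio of FPKM within each library (vertical axes) for Il1rn over Il1b and Il1a over Il1b, in P-Mn/TI@mHSA, P-Mn@mHSA and PBS. Points are libraries and the black dash and bar are mean ± SD (n = 3). Il1rn over Il1b lies at 2.06 to 2.36, 1.09 to 1.37 and -0.13 to 0.17 in these groups, and Il1a over Il1b lies at -0.4 to -0.09, -0.39 to -0.17 and -2.68 to -2.47.

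Of the other ligands of the family, Il36b, Il36rn and Il1f10 had no count in any library. Il36a averaged 0.374 CPM in P-Mn/TI@mHSA, 0.785 CPM in P-Mn@mHSA and 0.91 CPM in PBS, and passed the edgeR test in none of the comparisons (limma called it lower in P-Mn/TI@mHSA than in PBS). The receptor list was thin as well: Il1r2, the decoy receptor, had 0 counts in every library, and Il1r1, Il18r1 and Il1rl2, the ligand-binding chains for interleukin-1, interleukin-18 and interleukin-36, had 0 to 2 counts per library. The accessory chains and ST2 were expressed, and 5 of the 9 listed receptors and decoys were tested. In P-Mn/TI@mHSA against PBS, 1 was called higher and 2 lower. In P-Mn@mHSA against PBS, 0 were higher and 1 lower. Between the particles 0 passed edgeR's test, with 2 at an unadjusted p under 0.05 and 0 by DESeq2 or limma. Such a p was common there, as an unadjusted edgeR p of 0.0467 ranked only 2417th of 12454 genes. The share called against PBS was 60.0% in P-Mn/TI@mHSA and 20.0% in P-Mn@mHSA. Of all tested genes, 54.4% and 48.5% were called there, and 3.82% between the particles. The differences from these shares were not tested.

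Il1rap, the accessory chain shared by the interleukin-1, interleukin-33 and interleukin-36 receptors, averaged 11.2 ± 2.11 CPM in P-Mn/TI@mHSA, 14 ± 0.953 CPM in P-Mn@mHSA and 19.1 ± 2.8 CPM in PBS (SD, n = 3 each). It fell relative to PBS by 0.76 on the log2 scale in P-Mn/TI@mHSA (edgeR adjusted p = 0.000133) and by 0.45 in P-Mn@mHSA (adjusted p = 0.0129). This second call was lost without PBS replicate 1 (edgeR adjusted p = 0.067) or PBS replicate 3 (adjusted p = 0.051), and with limma on log2(FPKM + 0.1) (adjusted p = 0.0716). Il1rl1, the receptor of interleukin-33, averaged 22.1 ± 1.2 CPM in P-Mn/TI@mHSA, 20.4 ± 1.67 CPM in P-Mn@mHSA and 22.4 ± 3.4 CPM in PBS. Its log2 fold change against PBS was -0.02 in P-Mn/TI@mHSA (95% interval -0.26 to 0.22) and -0.13 in P-Mn@mHSA (-0.38 to 0.11), neither called, while its ligand Il33 differed more than 10-fold in the same libraries. Il18rap, the accessory chain for interleukin-18, averaged 41.3 ± 2.86 CPM in P-Mn/TI@mHSA, 48.3 ± 2.59 CPM in P-Mn@mHSA and 51.2 ± 2.31 CPM in PBS, and passed the test only in P-Mn/TI@mHSA against PBS (log2 -0.31, edgeR adjusted p = 0.00273). Sigirr, an inhibitory member of the receptor family, averaged 17.0 ± 1.75 CPM in P-Mn/TI@mHSA and 13.7 ± 1.75 CPM in PBS (log2 0.31, edgeR adjusted p = 0.0392), a call that was lost without PBS replicate 1 or 3 or P-Mn/TI@mHSA replicate 1 or 3 (adjusted p up to 0.157). Il18bp, the soluble inhibitor of interleukin-18, averaged 1.64 CPM in P-Mn/TI@mHSA, 1.73 CPM in P-Mn@mHSA and 1.48 CPM in PBS and was called in none of the comparisons.

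**Figure D5:**
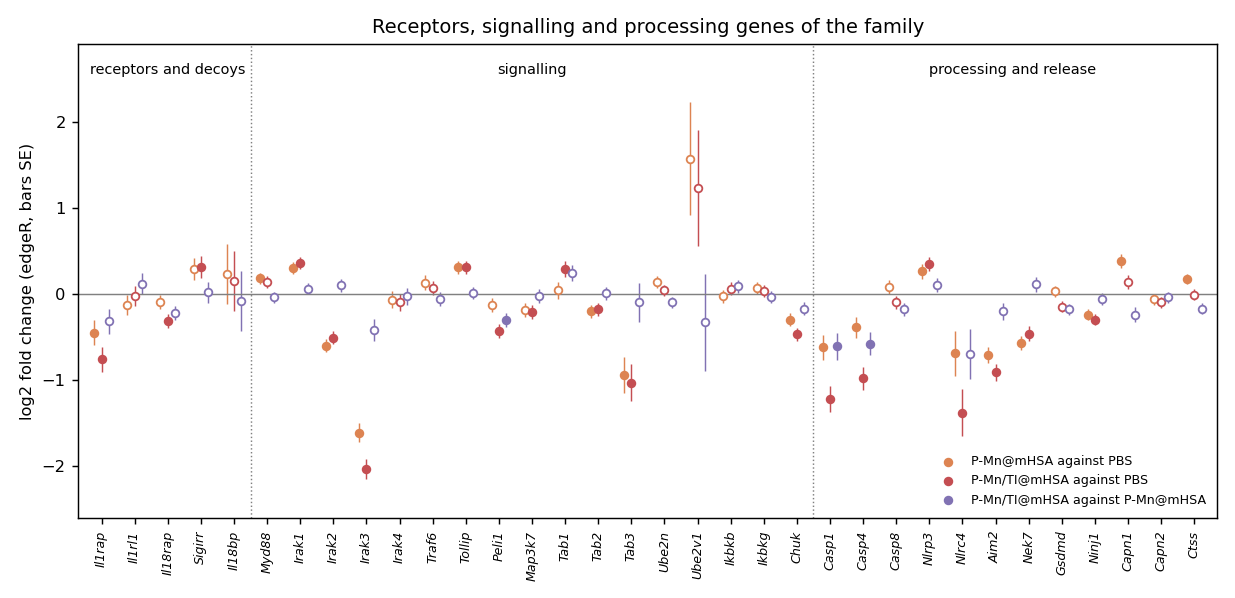
Log2 fold change (vertical axis) of the tested receptors, signalling genes and processing genes in the 3 comparisons, with bars of 1 SE from edgeR. Filled circles were called and open circles were not. Irak3 is the lowest of the signalling genes, at -2.03 for P-Mn/TI@mHSA and -1.61 for P-Mn@mHSA against PBS, and Casp1 and Casp4 are filled in all 3 comparisons.

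Signalling genes below the receptors were mixed. Of 17 tested, 3 were called higher and 7 lower in P-Mn/TI@mHSA against PBS, 3 higher and 5 lower in P-Mn@mHSA against PBS, and 0 higher and 1 lower between the particles. The share called, 58.8%, 47.1% and 5.88% in these comparisons, was near the 54.4%, 48.5% and 3.82% of all tested genes. Irak3, an IRAK that restrains the signal, averaged 14.1 ± 1.61 CPM in P-Mn/TI@mHSA, 18.9 ± 1.48 CPM in P-Mn@mHSA and 57.6 ± 9.06 CPM in PBS. It fell relative to PBS by 2.03 on the log2 scale in P-Mn/TI@mHSA (edgeR adjusted p = 8e-12) and by 1.61 in P-Mn@mHSA (adjusted p = 1.94e-10). Irak2, a kinase-like IRAK that sustains signalling, averaged 81.3 ± 7.74 CPM in P-Mn/TI@mHSA, 76.0 ± 4.2 CPM in P-Mn@mHSA and 115.0 ± 3.49 CPM in PBS and fell in both particle groups. Irak1, the kinase at the receptor complex, rose relative to PBS by a log2 of 0.36 in P-Mn/TI@mHSA and 0.3 in P-Mn@mHSA. Chuk, a kinase of the NF-kB pathway, fell in both particle groups. Its log2 fold changes against PBS were -0.47 in P-Mn/TI@mHSA and -0.3 in P-Mn@mHSA (edgeR adjusted p = 2.86e-05 and 0.00319). Traf6, the target of the inhibitor, was called in none of the comparisons, with log2 fold changes of 0.07 in P-Mn/TI@mHSA and 0.13 in P-Mn@mHSA against PBS and -0.06 between the particles. A transcript does not report the activity of an inhibited protein. Peli1, a ubiquitin ligase of IRAK complexes, was the gene called between the particles (log2 -0.3, edgeR adjusted p = 0.0409), and this call was lost on leaving out PBS replicate 3, P-Mn@mHSA replicate 1 or 3, or P-Mn/TI@mHSA replicate 1 or 3 (adjusted p up to 0.154). Limma on log2(FPKM + 1) or log2(FPKM + 0.1) did not call Peli1 there (limma adjusted p = 0.102 and 0.098). Nor did edgeR with the replicate number as a block (adjusted p = 0.0678).

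Processing and release genes also included calls in both directions. Of 12 tested, 1 was higher and 6 lower in P-Mn/TI@mHSA against PBS, 3 higher and 6 lower in P-Mn@mHSA against PBS, and 0 higher and 2 lower between the particles. The share called was 58.3%, 75.0% and 16.7% in these comparisons, beside 54.4%, 48.5% and 3.82% of all tested genes, and the differences were not tested. Casp1, the protease that matures interleukin-1 beta and interleukin-18, averaged 13.5 ± 2.65 CPM in P-Mn/TI@mHSA, 20.5 ± 5.32 CPM in P-Mn@mHSA and 31.5 ± 1.58 CPM in PBS. It fell relative to PBS by 1.22 on the log2 scale in P-Mn/TI@mHSA (edgeR adjusted p = 7.93e-07) and by 0.62 in P-Mn@mHSA (adjusted p = 0.0015). Casp4, the caspase of the non-canonical inflammasome, averaged 14.5 ± 1.99 CPM in P-Mn/TI@mHSA, 21.8 ± 3.87 CPM in P-Mn@mHSA and 28.6 ± 2.82 CPM in PBS. Both were called lower between the particles (log2 -0.61 with edgeR adjusted p = 0.0332 for Casp1, and -0.58 with 0.0168 for Casp4). Without replicate 2 of P-Mn@mHSA the Casp1 and Casp4 calls between the particles were lost (edgeR adjusted p = 0.211 and 0.107), as they were on leaving out P-Mn/TI@mHSA replicate 1 (0.193 and 0.116). Leaving out P-Mn/TI@mHSA replicate 2 ended the Casp1 call (0.0513), and leaving out replicate 3 ended that of Casp4 (0.059). With limma on log2(FPKM + 1) neither was called between the particles (limma adjusted p = 0.137 for Casp1 and 0.0852 for Casp4). The same held on log2(FPKM + 0.1) (limma adjusted p = 0.132 and 0.0788). The Casp4 call in P-Mn@mHSA against PBS, where the groups overlapped, was lost without PBS replicate 1 or 2 or P-Mn@mHSA replicate 1 or 3, with edgeR adjusted p up to 0.0722.

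The sensors differed in direction. Aim2, a sensor of cytosolic DNA, averaged 25.5 ± 2.1 CPM in P-Mn/TI@mHSA, 29.3 ± 2.53 CPM in P-Mn@mHSA and 48.0 ± 4.11 CPM in PBS, and fell in both particle groups (log2 -0.91 and -0.71, edgeR adjusted p = 8.02e-08 and 2.52e-06). Nlrp3, the sensor of the best studied inflammasome, averaged 204.0 CPM in P-Mn/TI@mHSA, 191.0 CPM in P-Mn@mHSA and 160.0 CPM in PBS, and rose in both (log2 0.35 and 0.26, edgeR adjusted p = 0.00103 and 0.0136). It lies outside the naming rule and is given because it is the usual partner of Casp1. Nek7, which assists NLRP3, fell in both groups (log2 -0.46 in P-Mn/TI@mHSA and -0.57 in P-Mn@mHSA). Pycard, the adaptor between sensor and caspase-1, had 0 counts in all P-Mn/TI@mHSA libraries, 0, 7 and 0 counts in P-Mn@mHSA, and 0, 1 and 0 counts in PBS. Capn1, a calpain subunit of the proteases that cut interleukin-1 alpha, rose in P-Mn@mHSA against PBS (log2 0.38, edgeR adjusted p = 0.000749).

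Transcription factors known at these genes included calls in both directions. Of 14 tested, 7 were called higher and 2 lower against PBS in each particle group. This was 64.3% called, beside 54.4% of all genes in P-Mn/TI@mHSA and 48.5% in P-Mn@mHSA, a difference not tested. Between the particles edgeR called 0, beside 3.82% of all genes, and 3 had an unadjusted p under 0.05. Such a p was common there, as an unadjusted edgeR p of 0.0467 ranked only 2417th of 12454 genes. DESeq2 and limma called 0 there, and edgeR with no filter called 2. Atf3, a stress-induced factor that can restrain cytokine genes, averaged 224.0 ± 24.8 CPM in P-Mn/TI@mHSA, 260.0 ± 18.1 CPM in P-Mn@mHSA and 35.3 ± 6.73 CPM in PBS, with log2 fold changes against PBS of 2.66 and 2.88 (edgeR adjusted p = 2.03e-14 and 6.13e-15). Fos, an AP-1 subunit, averaged 46.6 ± 0.535 CPM in P-Mn/TI@mHSA, 40.3 ± 2.56 CPM in P-Mn@mHSA and 15.4 ± 1.46 CPM in PBS and rose in both. Rela, the p65 subunit of NF-kB, averaged 124.0 ± 3.21 CPM in P-Mn/TI@mHSA, 126.0 ± 6.56 CPM in P-Mn@mHSA and 78.0 ± 2.12 CPM in PBS and rose in both. Hif1a, a factor known to drive Il1b in activated macrophages, moved the other way, with 55.2 ± 5.57 CPM in P-Mn/TI@mHSA, 67.3 ± 8.65 CPM in P-Mn@mHSA and 120.0 ± 9.38 CPM in PBS (log2 -1.12 and -0.83, edgeR adjusted p = 2.13e-09 and 1.56e-07). The second factor called lower was Rel, a further NF-kB subunit, with log2 fold changes of -0.95 in P-Mn/TI@mHSA and -0.8 in P-Mn@mHSA.

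The list for mRNA decay held genes that shorten the life of cytokine transcripts. It also held Elavl1, which is not a decay factor and was called in none of the comparisons. Of 6 tested, 1 was higher and 4 lower against PBS in each particle group. Between the particles edgeR, DESeq2 and limma called 0, where edgeR called 3.82% of all genes. There 1 of the 6, Zfp36l2, had an unadjusted p under 0.05. Its edgeR p of 0.0467 ranked only 2417th of 12454 genes. Of all tested genes, 27.3% were called lower in P-Mn/TI@mHSA and 24.1% in P-Mn@mHSA against PBS, and the difference of these 6 genes from that share was not tested. Zc3h12a, the endonuclease Regnase-1, averaged 80.4 ± 1.95 CPM in P-Mn/TI@mHSA, 78.4 ± 7.86 CPM in P-Mn@mHSA and 126.0 ± 5.11 CPM in PBS. Rc3h1, the decay factor Roquin-1, averaged 41.5 ± 5.86 CPM in P-Mn/TI@mHSA, 40.0 ± 1.17 CPM in P-Mn@mHSA and 69.4 ± 5.49 CPM in PBS. Both fell in both particle groups, with edgeR adjusted p from 1.48e-07 to 8.21e-07. Zfp36, tristetraprolin, averaged 244.0 ± 11.4 CPM in P-Mn/TI@mHSA, 237.0 ± 12.1 CPM in P-Mn@mHSA and 311.0 ± 23.5 CPM in PBS and fell in both, whereas its relative Zfp36l2 rose in both (log2 0.41 and 0.26). Over all 6 lists, 55 of 67 genes were tested, of which 13 were higher and 21 lower in P-Mn/TI@mHSA against PBS, 14 higher and 18 lower in P-Mn@mHSA against PBS, and 0 higher and 3 lower between the particles. These shares, 61.8%, 58.2% and 5.45%, stood against 54.4%, 48.5% and 3.82% of all tested genes.

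The genes whose pattern lay nearest to each member were found by the root mean square difference of centred log2 CPM over the 9 libraries, among 9188 genes. Rsad2, the antiviral enzyme viperin, was nearest to Il33 at 0.121 log2 units, with 137.0 CPM in P-Mn/TI@mHSA, 247.0 CPM in P-Mn@mHSA and 13.6 CPM in PBS. Cmpk2 and Adm came next at 0.476 and 0.499. Il1b had Upp1 (0.271), Cstdc4 (0.323) and Abca1 (0.348) nearest to it, and Il1a had Gbp3 (0.239), Scimp (0.245) and Gbp7 (0.301). Gbp3 averaged 9.83 CPM in P-Mn/TI@mHSA, 25.1 CPM in P-Mn@mHSA and 17.7 CPM in PBS, the same order of groups as Il1a. Il18 was nearest to Nmi (0.108), Txndc9 (0.114) and Ifi44 (0.124), Il1rn to Slc15a3 (0.0875), Lrif1 (0.106) and Car13 (0.119), and Il36g to Ntng2 (0.286), Mmp9 (0.37) and Urah (0.383). Within the family, the nearest pair was Il1a and Il18 at 0.372, Il1b and Il36g lay 0.711 apart, and the member nearest to Il33 was Il18 at 1.68. These distances are descriptions over 9 libraries that share their depth and their groups.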

How the data were processed

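Members were the 6 genes named above. The members, the pathway lists and the markers were chosen with earlier results of these data known. Per the file headers, the authors' deposited table gives a raw read count and an FPKM for every gene and library. Dividing each count by the gene's length and a single constant of its library returned the deposited FPKM (largest relative deviation 1.07e-13), so both units hold the same reads. Tools named by the submitters' processing notes are FastQC and cutadapt 1.9, with GRCm38 as the build. Alignment and counting, with their treatment of strand and multiple matches, were not given in the sources used here. Coordinates in the table equalled those of GENCODE M21 (GRCm38) for 1524 of 52125 common identifiers, so no coordinate of the table is printed. Its positions serve for chromosome, strand, and which genes overlap or neighbour each other within the table. Promoter windows come from RefSeq for GRCm38.p6. Il36g was matched there by the synonym Il1f9, and all 6 members matched.

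From the counts, edgeR 4.0.16 (R 4.3.3) with filterByExpr (smallest count 10) kept 12454 genes and 99.873 to 99.912% of each library's counts. After TMM scaling, the 9 libraries entered 1 quasi-likelihood model with group means. Tests were two-sided, with Benjamini-Hochberg adjustment over all tested genes. CPM are TMM-normalised, and an SE is the absolute log2 fold change over the square root of F. Ratios used FPKM and exact permutation tests. Named genes were the members, every tested receptor, Traf6, the 3 called genes of lowest p per list and comparison, and the 3 nearest genes of each member with a mean CPM of at least 5 (no predicted genes). Genes named outside this rule are Nlrp3, Rel, Elavl1, the untested ones, the overlapping or neighbouring genes, and Gapdh. Alternatives were DESeq2 1.42.0, its size factors (RLE), no filter, limma 3.58.1 on log2(FPKM + 1) and log2(FPKM + 0.1), a replicate block, and leaving out each library.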

Additional observations from a re-analysis of the deposited data

How the results depend on the processing

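The number of members called was within 1.5 times of the reported one under all 45 alternatives: 6 throughout in P-Mn@mHSA against PBS, 5 throughout in P-Mn/TI@mHSA against PBS, and 4 to 5 between the particles. Of 270 single fold changes, 260 kept direction and call. Both tallies include Il36g against PBS, which was kept for testing only through its PBS counts. Its stable calls there count as no support. Il1rn between the particles was no longer called with limma (-0.34 and -0.36, adjusted p = 0.135 and 0.129) or with the replicate block (-0.36, adjusted p = 0.0503), and leaving out 1 library gave -0.44 to -0.33. Leaving out 1 library moved the uncalled fold change of Il18 in P-Mn/TI@mHSA against PBS over -0.13 to 0.02 and that of Il36g between the particles over -0.74 to 0.1. The Il1a over Il1b difference between the particles ran from -0.05 to 0.1. The other pathway genes called between the particles numbered 3, against 6 with no filter, 0 with limma at either pseudocount, and 0 to 4 when 1 library was left out. For P-Mn@mHSA against PBS leaving out 1 library gave 27 to 35, and for P-Mn/TI@mHSA against PBS 30 to 35. Of 41 called values of named pathway genes, 35 held under every alternative. These genes were named as the called genes of lowest p in the same data, so this count favours strong calls. It does not speak for the other pathway genes. Over all genes, 476 were called between the particles, against 312 with the replicate block, 665 with DESeq2, 791 with no filter, 155 and 143 with limma, and 129 to 794 when 1 library was left out. Measured in counts and not in FPKM, the Il33 share exceeded that of PBS by 16.2 percentage points in P-Mn/TI@mHSA and 18.3 in P-Mn@mHSA, against 12.2 and 13.2 in FPKM, because counts are not divided by length. Same-numbered libraries had deviations from their group means that correlated at -0.0661 to 0.0611 over 9 pairs. Differently numbered libraries correlated at -0.0981 to 0.1043. The numbers thus showed no visible pairing, but correlations over so few libraries cannot exclude a weak one. The replicate block changed no other call of a member. Depth limits Il36g, with 3 to 10 counts per particle library, and the receptors with 0 to 2 counts. The cause of these shifts was not tested.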

Other observations

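Genes beside the members on the chromosome were taken by position among tested genes, and their values are given with no explanation. Ranbp6 and Uhrf2, on either side of Il33, were lower in both particle groups than in PBS, while Il33 was higher. The log2 fold changes of Ranbp6 were -1.64 in P-Mn/TI@mHSA and -1.28 in P-Mn@mHSA (edgeR adjusted p = 1.03e-06 and 2.18e-05), and those of Uhrf2 were -0.61 and -0.68 (9.57e-07 and 2.79e-07). Beyond Il1b, Sirpa, an inhibitory receptor of macrophages, had log2 fold changes against PBS of 0.18 in P-Mn/TI@mHSA and -0.09 in P-Mn@mHSA, neither called. On the far side of Il1a, Ckap2l, a mitotic spindle gene, was lower in both (log2 -0.7 and -0.6, edgeR adjusted p = 5.83e-06 and 4.78e-05). Spopl, beside Il36g, was lower in both (log2 -0.76 and -0.7, edgeR adjusted p = 4.97e-05 and 0.000142), and Psd4, beside Il1rn, was called in none of the comparisons. Sdhd, beside Il18, was higher in both (log2 0.24 in P-Mn/TI@mHSA and 0.18 in P-Mn@mHSA, edgeR adjusted p = 0.00533 and 0.0323), and Bco2 on its other side was not called.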
